A study of Mus musculus with 36 samples.

Results

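The Hedgehog pathway genes described here were *Ptch1*, *Hhip*, *Gas1*, *Smo*, *Gpr161*, *Sufu*, *Gli1*, *Gli2* and *Gli3*, which are 9 of the 53421 genes in the count table. They were taken by gene name. All 9 were tested in both time courses, *Hhip* passing the filter on low counts only through its 0 and 24 h libraries. RNA-seq had been run on 36 libraries of a conditionally immortalised wild-type mouse chondrocyte line that was kept at the non-permissive temperature without interferon-γ before use. Cells carried either a non-targeting siRNA pool (NT) or an siRNA pool against *Ift88* (IFT88siRNA). They were collected untreated at 0 h, or at 5 times from 1 to 24 h after the inflammatory cytokine IL-1β was added, which gave 12 conditions of 3 replicates. No library without IL-1β was analysed after 0 h, so IL-1β cannot be told apart from time since 0 h, and this holds for every change with time below. Nothing stated that replicates came from separate cultures, so p-values measure only the spread between these libraries. In such bulk RNA, fewer cells expressing a gene and less RNA per cell cannot be told apart.

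Patched-1, encoded by *Ptch1*, is the receptor of the Hedgehog ligands, and without ligand it keeps Smoothened (*Smo*) inactive. Suppressor of fused (*Sufu*) then holds the GLI proteins, and GLI3 and GLI2 are cut into repressors. When ligand binds, Smoothened gathers in the primary cilium, GLI2 and GLI3 act as activators, and *Gli1*, *Ptch1* and *Hhip* are transcribed, so these 3 genes are the usual readouts of the pathway. IFT88 is a subunit of the intraflagellar transport complex that builds the cilium. In the growth plate, chondrocytes make Indian hedgehog, which paces their own maturation.

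The knockdown and the identity of the cells were checked first. *Ift88* lay between 5.83 and 10.2 CPM (reads scaled to library size, with TMM correction for composition) in the NT libraries and between 1.43 and 3.10 CPM in the IFT88siRNA libraries, so the groups did not overlap. Averaged over the 6 time points it was at 29.4% of NT (log2 difference -1.77 ± 0.059 SE, adjusted p = 1.30e-22). Of 13 chondrocyte markers, 7 had a mean of at least 1 TPM (a share of the library scaled for transcript length), as did 11 of 11 fibroblast markers, 1 of 6 macrophage and leukocyte markers, 0 of 4 endothelial markers and 1 of 4 epithelial markers. *Sox9* averaged 14.7 TPM and *Col2a1* 3.58 TPM, while *Acan* and *Col9a1*, which also define cartilage, reached at most 0.206 and 0.106 TPM in a library. The chondrocyte markers summed to between 31.8 and 163 TPM in a library and the fibroblast markers to between 3225 and 6744 TPM. The largest parts of the fibroblast sum were *Vim* and *S100a4*, with means of 2170 and 1492 TPM. The fibroblast markers *Pdgfra*, *Thy1* and *Lum* averaged 13.3, 11.2 and 1.90 TPM. Library totals ran from 19337022 to 38304127 assigned reads, with medians of 21672803.5 in NT and 25873754 in IFT88siRNA.

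The promoter windows of 3 members are shown because *Ptch1* and *Hhip* are the target genes that were highest at 24 h, and because *Sufu* held the matches to an NF-κB site, the site of the transcription factor that IL-1β activates. The sequences are from RefSeq on GRCm38.p6, 5′ to 3′ on the strand of the gene, from 250 bases before the start to 50 bases after it. Capitals mark matches to the motifs searched.
*Ptch1*, chr13:63565686-63565985, minus strand: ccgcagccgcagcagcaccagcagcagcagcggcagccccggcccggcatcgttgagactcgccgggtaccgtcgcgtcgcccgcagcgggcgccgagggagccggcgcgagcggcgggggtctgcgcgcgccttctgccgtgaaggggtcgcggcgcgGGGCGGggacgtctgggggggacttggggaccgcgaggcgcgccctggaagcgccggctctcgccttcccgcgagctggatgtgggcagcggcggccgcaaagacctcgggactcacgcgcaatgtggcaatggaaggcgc
*Hhip*, chr8:80057959-80058258, minus strand: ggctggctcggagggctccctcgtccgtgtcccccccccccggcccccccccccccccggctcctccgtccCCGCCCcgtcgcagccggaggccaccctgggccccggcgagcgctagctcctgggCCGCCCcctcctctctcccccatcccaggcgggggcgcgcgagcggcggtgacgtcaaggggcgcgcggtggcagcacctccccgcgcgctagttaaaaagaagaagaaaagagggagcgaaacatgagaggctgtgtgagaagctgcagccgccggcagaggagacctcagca
*Sufu*, chr19:46396646-46396945, plus strand: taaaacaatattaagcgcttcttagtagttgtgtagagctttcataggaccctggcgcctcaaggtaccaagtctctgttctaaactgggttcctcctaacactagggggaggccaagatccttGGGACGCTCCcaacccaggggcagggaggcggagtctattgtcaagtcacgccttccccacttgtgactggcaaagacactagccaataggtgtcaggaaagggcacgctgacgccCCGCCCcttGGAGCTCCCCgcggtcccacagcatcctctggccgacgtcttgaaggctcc
Both strands were searched for the GLI site GACCACCCA, the AP-1 site TGANTCA, the GC box GGGCGG and the NF-κB consensus. The *Ptch1* window held 1 GC box, the *Hhip* window 2, and the *Sufu* window 1 GC box and 2 NF-κB matches, none of them overlapping. Binding of any factor at these matches was not tested. Of 32851 promoter windows of this length, 35.7% held a GC box, 8.46% an NF-κB match, 7.81% an AP-1 site and 0.253% the GLI site. Of the 9 genes, 8 had a window and *Gli1* had none. That of *Ptch1* lay inside the gene, at a start downstream of its annotated 5′ end at chr13:63573598. None of these windows held the GLI or the AP-1 letters, which says only that the letters are not in these windows.

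In untreated NT cells the members covered a wide range of levels per transcript length. *Smo*, the signal transducer, was at 137 ± 5.10 TPM (SD, n = 3) and *Gas1*, a ligand co-receptor, at 134 ± 1.24 TPM, and these did not differ beyond their spread. *Gli3*, the main GLI repressor, followed at 26.7 ± 2.06 TPM and *Sufu* at 22.9 ± 2.76 TPM, with overlapping replicates. *Ptch1* was at 12.4 ± 0.812 TPM and *Gpr161*, a ciliary receptor that keeps the pathway off through cAMP, at 7.03 ± 0.277 TPM. *Gli2*, the main activator, was at 1.73 ± 0.148 TPM. The 2 genes lowest in level were both transcriptional targets. *Gli1* was at 0.502 ± 0.0893 TPM, and *Hhip*, a decoy receptor that binds ligand at the cell surface, was at 0.165 ± 0.0278 TPM. The precision for these 2 genes was low, since *Gli1* had 9 to 32 reads in a library and *Hhip* had 0 to 89, against 987 to 8516 for *Ptch1*. Such ranges and the tests below cover counting error and the spread of replicates, but the reads carried no molecular identifiers.

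**Figure D1:**
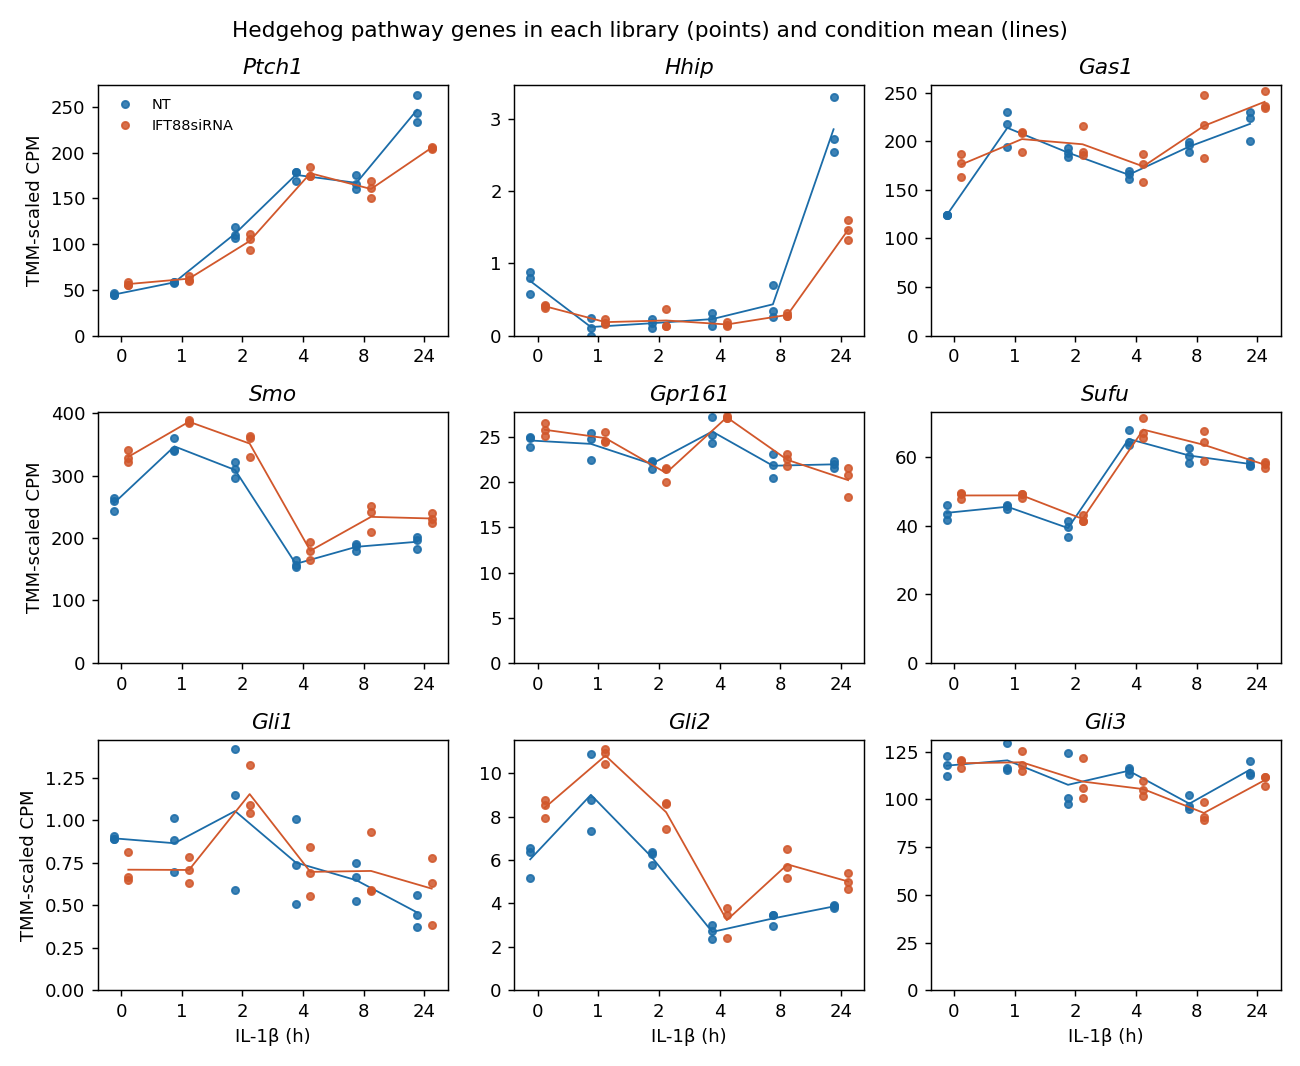
Level of each of the 9 genes in TMM-scaled CPM, on linear axes from 0, against hours after IL-1β in evenly spaced steps, with a panel for each gene, NT in blue and IFT88siRNA in orange. Points are libraries and lines join the means of 3 replicates. *Ptch1* climbed from 44.7 to 247 CPM in NT, *Hhip* was low from 1 to 8 h and reached 2.86 CPM at 24 h, and *Gli3* and *Gpr161* stayed within narrow bands.

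The time course in NT cells asked how IL-1β moved these genes when the cilium gene was intact. A gene was called when its adjusted p was under 0.05 and it changed by over 1.5-fold at a time point. By the joint test of all 5 time points against 0 h, 7 of the 9 genes were called, beside 50.0% of the 16048 genes tested. By the adjusted p alone 9 of 9 passed, beside 88.4% of all genes, so passing that test was common in these cells. At their largest change *Ptch1*, *Gas1* and *Sufu* were higher, 3 of 9 beside 23.6% of all genes, and *Hhip*, *Smo*, *Gli1* and *Gli2* were lower, 4 of 9 beside 26.3%. *Gli3* and *Gpr161* were not called. The call of *Hhip* is no support for these counts, since this gene entered the test only through the time points where it was high.

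*Ptch1*, at chr13:63508328-63573598 on the minus strand, rose most among the 9. Its level in NT was 44.3, 46.2 and 43.8 CPM in the 3 replicates at 0 h, and 263, 244 and 234 CPM at 24 h. Between these it averaged 58.2 ± 0.579 CPM at 1 h, 111 ± 6.13 CPM at 2 h, 176 ± 5.36 CPM at 4 h and 167 ± 7.41 CPM at 8 h. Every later library lay above all 3 libraries of 0 h, and 4 h and 8 h were the neighbours that overlapped. The increase was 2.48-fold at 2 h and 5.52-fold at 24 h (log2 change 2.46 ± 0.052 SE, adjusted p = 8.97e-22). At 1 h it was 1.30-fold, which passed the test but not the fold threshold. No library, when left out, ended the call.

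*Hhip*, at chr8:79965851-80058006 on the minus strand, was low from 1 to 8 h and rose at 24 h. Its reads in the NT replicates were 19, 14 and 20 at 0 h, 2, 0 and 5 at 1 h, and 73, 89 and 75 at 24 h. The library with 0 reads allows up to 3, or 0.126 CPM. On the CPM scale the means were 0.756 ± 0.160 at 0 h, 0.118 ± 0.123 at 1 h, 0.170 ± 0.0621 at 2 h, 0.228 ± 0.0906 at 4 h, 0.433 ± 0.239 at 8 h and 2.86 ± 0.400 at 24 h. The 1, 2 and 4 h libraries all lay below those of 0 h and overlapped each other, whereas the 24 h libraries lay above all the others. Since the gene passed the filter only through 0 and 24 h, its differences from 1 to 8 h are given as a description with no test. The log2 difference from 0 h was -2.68 ± 0.54 SE at 1 h and -0.81 ± 0.39 at 8 h. At 24 h the log2 change was 1.92 ± 0.28 (adjusted p = 3.18e-06). The size at 1 h rested on few reads, being -2.04 without NT 1 h replicate 2 and -3.83 without NT 1 h replicate 3. Of these 2 target genes, *Ptch1* thus lay above its 0 h level and *Hhip* below it at 2 and 4 h, and both lay above it at 24 h. The third usual readout, *Gli1*, went the other way at 24 h in NT, at a mean of 0.458 CPM against 0.894 CPM at 0 h.

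*Gas1*, at chr13:60174405-60177365 on the minus strand, was higher at each later time in NT. Its levels were 124.07, 123.58 and 123.7 CPM at 0 h and 230, 194 and 217 CPM at 1 h. It then averaged 188 ± 4.28 CPM at 2 h, 165 ± 3.78 CPM at 4 h, 194 ± 5.05 CPM at 8 h and 218 ± 15.5 CPM at 24 h. No later library overlapped with 0 h. The rise was 1.72-fold at 1 h (adjusted p = 9.96e-12) and 1.76-fold at 24 h (adjusted p = 3.49e-12), and at 4 h it was 1.35-fold, under the fold threshold. Of the 2961 exonic bases of *Gas1* in the GENCODE annotation, 589 are shared with *Gm48488*, a non-coding gene on the other strand. If the annotation used for counting holds this overlap, reads there are by default counted for neither gene.

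Among the transducers, *Smo* showed a small early increase and a later fall. In NT it was at 265, 259 and 243 CPM at 0 h, 360, 340 and 341 CPM at 1 h, and 166, 158 and 153 CPM at 4 h. These 3 groups did not overlap. The fall at 4 h was to 62.4% of 0 h (log2 change -0.68 ± 0.048 SE, adjusted p = 6.17e-12). The increase at 1 h was 1.35-fold and that at 2 h 1.21-fold, both under the fold threshold, and at 2 h the log2 difference was -0.03 on the log2(TPM + 1) scale, so its direction depended on the scale. At 8 and 24 h *Smo* was at 73.0% and 75.9% of 0 h.

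*Sufu* stood at the threshold. Its NT levels were 46.0, 43.4 and 41.8 CPM at 0 h and 67.9, 63.6 and 64.3 CPM at 4 h, without overlap. The level at 4 h was 150.1% of that at 0 h (log2 change 0.59 ± 0.050 SE, adjusted p = 2.09e-10). Leaving out any of 7 libraries took it under 1.5-fold, the lowest being 0.54 on the log2 scale without NT 4 h replicate 1, and the others being NT 0 h replicates 2 and 3, NT 2 h replicates 1, 2 and 3 and NT 4 h replicate 3. It was 0.46 with upper-quartile scaling and 0.36 on the log2(TPM + 1) scale, with the same sign. *Gpr161* averaged between 21.8 and 25.6 CPM in the 6 NT conditions, and its largest difference from 0 h was -0.17 ± 0.061 on the log2 scale at 8 h.

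Of the transcription factors, *Gli2* was first higher and then fell. Its NT replicates were 6.55, 6.35 and 5.19 CPM at 0 h, 10.9, 8.77 and 7.33 CPM at 1 h, and 3.002, 2.34 and 2.71 CPM at 4 h. The 1 h libraries all lay above those of 0 h, and the 4, 8 and 24 h libraries all lay below them. The level at 1 h was 1.48-fold higher (log2 change 0.57 ± 0.12 SE, adjusted p = 4.55e-04), under the fold threshold. The level at 4 h was 44.5% of that at 0 h (log2 change -1.17 ± 0.15 SE, adjusted p = 3.78e-07), and it was 55.0% at 8 h and 64.0% at 24 h. At 24 h leaving out NT 0 h replicate 1 took the change to -0.58, under the fold threshold, and the adjusted p was 0.0599 on the log2(TPM + 1) scale.

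*Gli1*, the amplifier of the response and its most used marker, had few reads throughout. In NT it was at 0.887, 0.907 and 0.887 CPM at 0 h and 0.561, 0.372 and 0.440 CPM at 24 h, without overlap. The log2 change at 24 h was -0.96 ± 0.32 SE (adjusted p = 0.0167), and the joint adjusted p was 0.0210. The joint call was lost with DESeq2 (adjusted p = 0.0585) and without NT 2 h replicate 1, NT 2 h replicate 3, NT 24 h replicate 2 or NT 24 h replicate 3, with adjusted p up to 0.0860. *Gli1* also shares 265 exonic bases with the antisense gene *Gm47200*. *Gli3* averaged between 97.8 and 120 CPM in NT, with its largest difference at 8 h, where it was at 83.3% of 0 h (adjusted p = 0.00133), under the fold threshold.

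**Figure D2:**
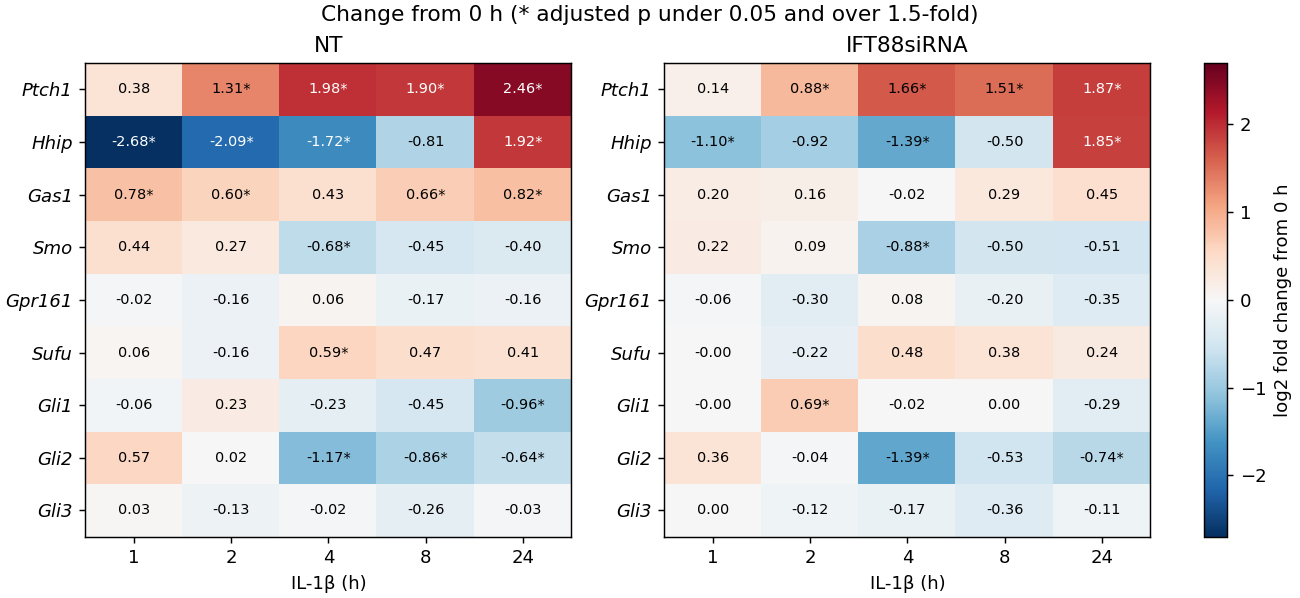
Heat map of the log2 fold change of each of the 9 genes from 0 h at the 5 later times, in NT (left) and IFT88siRNA cells (right), with each value printed. Red is higher, blue is lower and a star marks an adjusted p under 0.05 with over 1.5-fold, as for *Ptch1* at 24 h (2.46 in NT and 1.87 in IFT88siRNA). *Hhip* passed the filter on low counts only through 0 and 24 h, so its stars from 1 to 4 h are no result.

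The same question was asked in IFT88siRNA cells, where 5 of the 9 genes were called over the time course, beside 48.2% of 16129 genes. These were *Ptch1*, *Hhip* and *Gli1*, higher at their largest change (3 of 9 beside 22.7%), and *Smo* and *Gli2*, lower (2 of 9 beside 25.5%). *Hhip* and *Gli1* were lower at their largest change in NT, but that change fell at another time point there. *Hhip* was also higher at 24 h in NT. Neither gene was called for a difference in response, but that test cannot show that their responses were alike. *Hhip* entered it only through 0 and 24 h, and the few reads of both genes left wide errors. *Ptch1* was at 55.4, 58.4 and 55.0 CPM at 0 h and at 207, 204 and 205 CPM at 24 h. It rose 3.65-fold over that interval (log2 change 1.87 ± 0.057 SE, adjusted p = 2.90e-18), with no overlap. *Hhip* went from 0.409, 0.387 and 0.424 CPM to 1.47, 1.61 and 1.33 CPM, a 3.59-fold rise (adjusted p = 1.77e-06). As in NT it passed the filter only through 0 and 24 h, so its joint call is no support and its log2 difference at 1 h (-1.10 ± 0.38 SE) is a description.

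*Smo* in IFT88siRNA cells fell at 4 h to 54.4% of 0 h (adjusted p = 8.18e-12) and *Gli2* to 38.1% (adjusted p = 1.46e-09). *Gli1* was at 0.648, 0.668 and 0.812 CPM at 0 h and 1.04, 1.33 and 1.09 CPM at 2 h, a 1.62-fold difference (joint adjusted p = 0.0344). That joint call was lost with DESeq2 (adjusted p = 0.121), upper-quartile scaling (0.0570) and no filter (0.0572). It was also lost without IFT88siRNA 1 h replicates 1 or 2, any of the 3 IFT88siRNA 2 h replicates (adjusted p up to 0.218) or IFT88siRNA 24 h replicate 2. *Gas1* and *Sufu*, called in NT, were not called here, their largest differences being 0.45 ± 0.082 at 24 h and 0.48 ± 0.051 at 4 h on the log2 scale. *Gli3* and *Gpr161* reached -0.36 at 8 h and -0.35 at 24 h.

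The count of members called varied with time and stood beside a high background. In NT, 2 of 9 were called at 1 h beside 18.7% of all genes, 3 at 2 h beside 27.3%, 5 at 4 h beside 28.7%, 3 at 8 h beside 19.7% and 5 at 24 h beside 16.3%. In IFT88siRNA cells the counts were 1 at 1 h beside 15.1%, 2 at 2 h beside 25.6%, 4 at 4 h beside 29.3%, 1 at 8 h beside 17.6% and 3 at 24 h beside 14.2%. These counts include *Hhip* at 1, 2 and 4 h in NT and at 1 and 4 h in IFT88siRNA cells, where its call is no support. Within each siRNA group all time points share the 0 h libraries. Of the genes called over the NT time course, 47.3% were higher at their largest change by TMM scaling, against 38.9% by upper-quartile scaling and 34.3% by TPM. At 4 h in NT, upper-quartile scaling moved the median of all genes by -0.12 on the log2 scale and TPM by -0.20. At that time the log2 changes of *Ptch1* (1.98) and *Gli2* (-1.17) exceeded these shifts with either scaling, and that of *Sufu* went under the fold threshold with either.

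The siRNA groups were then compared at each time point, to ask whether depletion of *Ift88* moved the pathway genes. The depletion was partial, and the paper reports that ciliated cells became fewer with this siRNA but were still present. At 0 h, before IL-1β, *Hhip* was called, beside 2.23% of 15274 genes, at 54.3% of NT (log2 difference -0.88 ± 0.31 SE, adjusted p = 0.0464). The 3 libraries of each group did not overlap, at 0.803, 0.577 and 0.887 CPM in NT and 0.409, 0.387 and 0.424 CPM in IFT88siRNA. The call was lost without any of 5 libraries, all but NT 0 h replicate 2 (adjusted p up to 0.179), without the filter on low counts (0.0730) and in a model of all 36 libraries (0.0825), and DESeq2 gave no adjusted p for it. Other members were higher in IFT88siRNA cells at 0 h with an adjusted p under 0.05 but by less than 1.5-fold. *Gas1* was 1.42-fold higher (adjusted p = 7.04e-08), *Gli2* 1.39-fold (0.00210), *Smo* 1.29-fold (1.38e-06), *Ptch1* 1.26-fold (4.09e-05) and *Sufu* 1.11-fold (0.0302). With *Hhip*, 6 of 9 members passed by the adjusted p alone, beside 19.5% of all genes.

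After IL-1β *Hhip* had too few reads for a test at 1 to 8 h, so that 8 of the 9 members were tested there, and all 9 at 24 h. At 1, 2 and 4 h 0 members were called by edgeR, beside 2.66%, 0.496% and 0.432% of all genes, and 0 by DESeq2. At each of these times 2 members had an unadjusted p under 0.05, *Smo* with *Gli2* or *Gli3*. *Smo* at 1 h was 1.11-fold higher (adjusted p = 0.0114), under the fold threshold. At 8 h *Gli2* was called, beside 0.692%. It was at 3.48, 2.95 and 3.48 CPM in NT and 5.19, 6.51 and 5.69 CPM in IFT88siRNA, 1.74-fold higher without overlap (log2 difference 0.80 ± 0.14 SE, adjusted p = 0.0113). Leaving out NT 8 h replicate 1, 2 or 3 or IFT88siRNA 8 h replicate 2 gave adjusted p of 0.0511 to 0.0573, and on the log2(TPM + 1) scale it was 0.232.

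At 24 h *Hhip* was called again, beside 1.15%. Its levels were 2.73, 3.31 and 2.54 CPM in NT and 1.47, 1.61 and 1.33 CPM in IFT88siRNA. It was at 51.7% of NT (log2 difference -0.95 ± 0.17 SE, adjusted p = 0.00245), the groups did not overlap, and leaving out any of the 6 libraries kept the call (-1.04 to -0.84). The call was lost on the log2(TPM + 1) scale by limma without a filter, where the difference was -0.305 (adjusted p = 0.307). *Ptch1* was at 82.9% of NT at 24 h (adjusted p = 0.00282), again without overlap, and *Smo* was 1.19-fold higher (adjusted p = 0.00549), both under the fold threshold. *Ptch1* was thus above NT at 0 h and below it at 24 h.

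**Figure D3:**
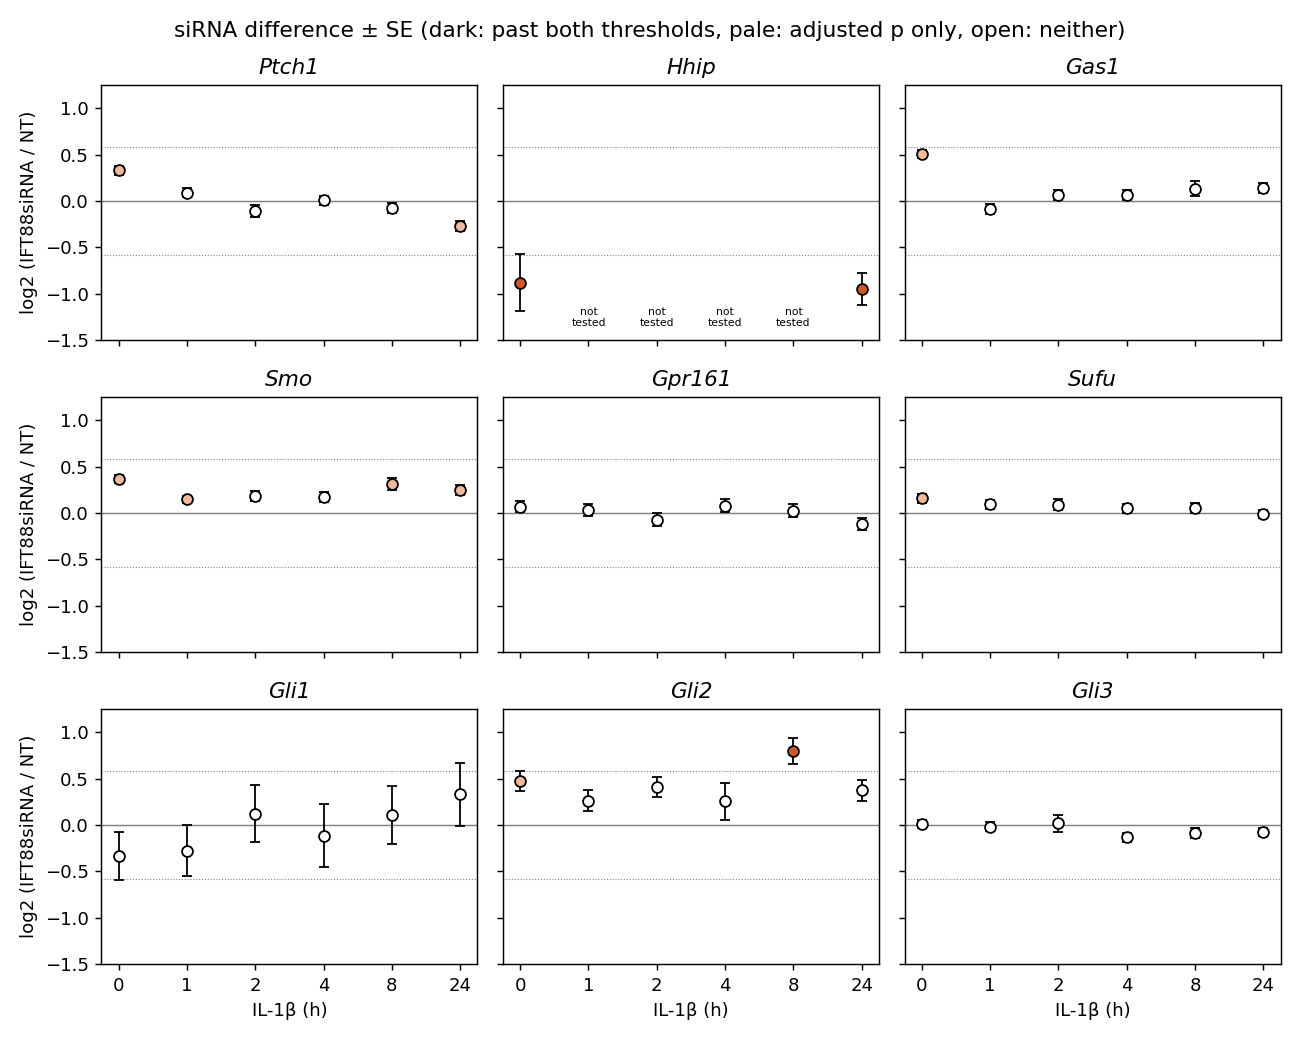
Log2 of IFT88siRNA over NT for each of the 9 genes at each of the 6 time points, with bars of 1 SE and dotted lines at 1.5-fold. Dark points passed both thresholds (*Hhip* at 0 and 24 h, *Gli2* at 8 h), pale points the adjusted p only and open points neither. *Hhip* had no test from 1 to 8 h, where too few libraries passed the filter on low counts.

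Joint tests over the 6 time points called *Gli2* (largest at 8 h, log2 difference 0.81, adjusted p = 2.54e-06) and *Hhip* (largest at 24 h, -0.95, adjusted p = 0.00398), 2 of 9 beside 5.19% of 16710 genes. *Hhip* passed the filter of this fit only through 0 and 24 h, so its joint call is no support. Averaged over the time points, 0 of 9 were called by edgeR, beside 1.93%, and 0 by DESeq2, with 4 at an unadjusted p under 0.05. With an adjusted p under 0.05 alone, *Gli2* was higher by 0.44 ± 0.054, *Smo* by 0.25 ± 0.023, *Gas1* by 0.14 ± 0.031 and *Sufu* by 0.080 ± 0.020 on the log2 scale, 4 of 9 beside 39.7% of all genes. The mean difference was 0.00 ± 0.022 for *Ptch1*, -0.04 ± 0.027 for *Gli3* and 0.01 ± 0.024 for *Gpr161*, whereas the errors were wider for *Hhip* (-0.32 ± 0.20) and *Gli1* (-0.02 ± 0.12). The mean of *Hhip* takes in the time points between 0 and 24 h, where it did not pass the filter, so it is a description with no test.

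The last comparison asked whether the change from 0 h itself differed between the siRNA groups, by the interaction of siRNA and time. *Ptch1* and *Gas1* were called, 2 of 9 beside 1.20% of 16710 genes. The log2 change of *Ptch1* in IFT88siRNA cells minus that in NT cells was -0.23 at 1 h, -0.44 at 2 h, -0.32 at 4 h, -0.39 at 8 h and -0.60 ± 0.077 SE at 24 h (adjusted p = 9.43e-06, joint adjusted p = 4.88e-05). At 24 h alone 0.132% of all genes were called. For *Gas1* it was -0.59 ± 0.11 SE at 1 h (adjusted p = 9.93e-04, joint adjusted p = 0.00670), where 0.598% of all genes were called, and -0.36 at both 8 and 24 h. These differences hold the 0 h levels, where *Ptch1* was higher in IFT88siRNA cells by 0.33 and *Gas1* by 0.51. In *Gas1* no later time point had an adjusted p under 0.05 between the siRNA groups, the differences there running from -0.09 at 1 h to 0.14 at 24 h.

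Both values stood near the fold threshold. Without IFT88siRNA 0 h replicate 2, *Ptch1* was at -0.57 and *Gas1* at -0.54, and 0 members were called by the threshold on size, although the joint adjusted p of *Gas1* stayed at or under 0.0359 and that of *Ptch1* at or under 2.93e-04 without any single library. *Ptch1* also went under the threshold without NT 0 h replicate 3 or NT 24 h replicate 1, and *Gas1* without NT 1 h replicate 1, NT 1 h replicate 3, IFT88siRNA 0 h replicate 1 or IFT88siRNA 1 h replicate 2. On the log2(TPM + 1) scale the joint adjusted p was 0.0208 for *Ptch1* and 0.0522 for *Gas1*. For the other 7 members the joint adjusted p was between 0.311 and 0.810. They include *Hhip*, which passed the filter of this fit only through 0 and 24 h, so its joint p is no result. The differences with the largest size among the 7 had wide errors. They were 1.58 ± 0.71 for *Hhip* at 1 h, a description with no test, and 0.67 ± 0.42 for *Gli1* at 24 h.

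**Figure D4:**
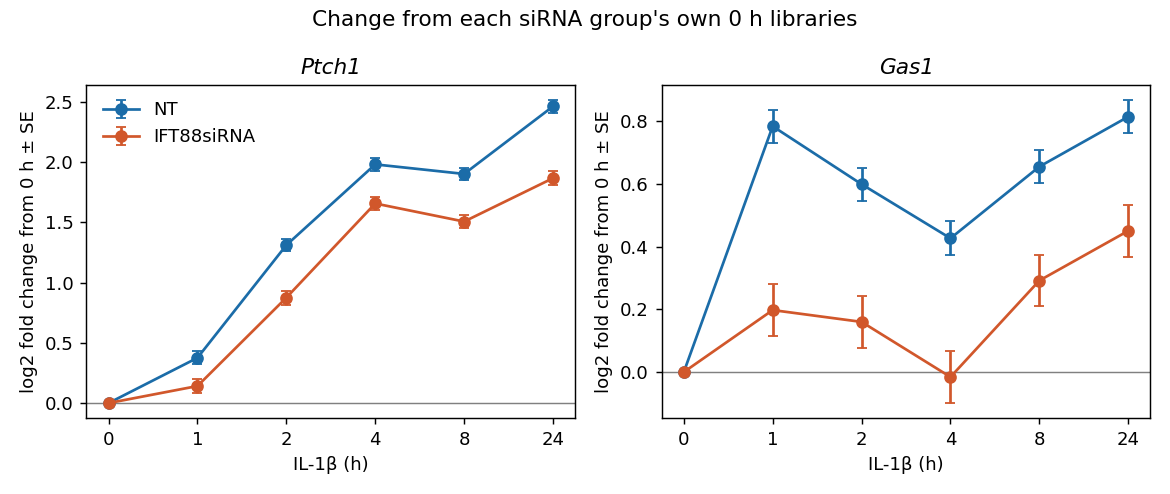
Log2 fold change of *Ptch1* (left) and *Gas1* (right) from the 0 h libraries of the same siRNA group against hours after IL-1β, with bars of 1 SE, NT in blue and IFT88siRNA in orange. Both genes start at 0 by construction, and at 24 h *Ptch1* was at 2.46 in NT and 1.87 in IFT88siRNA and *Gas1* at 0.82 and 0.45.

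Likeness of pattern was described by Pearson's r of mean log2 CPM over the 12 conditions, which share libraries and treatment, among 13257 genes with a mean of at least 1 CPM. *Smo* and *Gli2* were alike (r = 0.981), and *Smo* and *Sufu* ran opposite (r = -0.817). The genes most like *Ptch1* were *Dram1* (0.980), *Ifnar2* (0.977) and *Sod2* (0.976). Those most like *Smo* were *Tpst1* (0.993) and *Zdhhc8* (0.991), those most like *Gli2* were *Glt28d2* (0.990) and *H2afy2* (0.988), and those most like *Sufu* were *Sec23ip* (0.986) and *Extl3* (0.981). *Gas1* was most like *Psmd3* (0.934), *Gli3* most like *Ndst3* (0.920) and *Gpr161* most like *Sdccag8* (0.917). *Gli1* and *Hhip* averaged under 1 CPM and were left out.

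Beyond the 9 members, a list of 82 other pathway genes in 5 roles was followed, of which 73 passed the filter on low counts. In NT 41 of these were called over the time course, 22 higher and 19 lower, or 56.2% beside 50.0% of all genes, and their median log2 change at the largest time was -0.15 beside -0.21. In IFT88siRNA cells 40 were called, 22 higher and 18 lower, beside 48.2%. Between the siRNA groups 6 were called over the time course, beside 5.19%, and on average 0 by edgeR, beside 1.93%, and 0 by DESeq2. On average 29 passed the adjusted p alone, beside 39.7%, and 33 an unadjusted p under 0.05.

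Ligand genes were sparse. *Shh* had at most 1 read in a library and *Ihh*, the ligand of the growth plate, at most 12, and neither was tested. Of the genes for ligands and their release, 3 of 4 tested were called in NT, beside 50.0% of all genes. *Scube3*, whose family helps to release ligand from cells, rose from 15.6 ± 0.615 to 109 ± 7.73 CPM at 4 h (log2 change 2.81), and *Hhat*, which adds palmitate to the ligands, from 7.14 ± 0.596 to 11.8 ± 1.40 CPM (0.73). *Dhh*, another ligand, averaged 0.657 ± 0.199 CPM at 0 h and 0.256 ± 0.0543 CPM at 1 h (-1.33). The 1 h mean of *Dhh* lay under the cutoff of the filter on low counts in NT (0.461 CPM). Its difference is thus a description with no test, and its call is no support for the count.

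Receptors and co-receptors had 6 of 7 called in NT, beside the same 50.0%. *Boc*, a ligand-binding co-receptor, went from 32.3 ± 2.45 to 83.5 ± 5.15 CPM at 1 h (log2 change 1.37), and *Gpc3*, a glypican that competes for ligand, from 0.693 ± 0.151 to 1.59 ± 0.274 CPM at 8 h (1.21). *Lrp2*, an endocytic receptor, was at 1.13 ± 0.0448 CPM at 24 h, from 2.46 ± 0.297 CPM (-1.12). *Boc* was 1 of the 2 genes of this list called for a difference in response between the siRNA groups, being -0.91 on the log2 scale at 4 h, where it averaged 73.1 CPM in NT and 50.2 CPM in IFT88siRNA. The other was *Nkx3-2*, a chondrogenic transcription factor, at -0.87 at 1 h. Both differences hold the 0 h levels of the siRNA groups, as for *Ptch1* and *Gas1*.

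Among regulators of Smoothened and of ciliary trafficking 9 of 19 were called in NT, 3 higher and 6 lower, a share near the 50.0% of all genes. *Evc*, a partner of Smoothened at the base of the cilium, fell from 121 ± 1.06 to 62.1 ± 0.557 CPM at 4 h (log2 change -0.95) and *Efcab7*, which anchors the EVC complex, from 14.8 ± 0.251 to 8.34 ± 0.636 CPM at 2 h (-0.83). *Adcy5*, an adenylyl cyclase, fell from 2.17 ± 0.231 to 0.824 ± 0.175 CPM at 2 h, and *Arrb1*, a β-arrestin, rose from 31.4 ± 3.01 to 55.9 ± 1.96 CPM at 1 h. The kinases and ubiquitin ligases that process the GLI proteins had 5 of 23, beside 50.0%. There *Dyrk2* rose at 2 h (1.12), *Csnk1e* at 2 h (0.98) and *Spop* at 4 h (0.90), and *Stk36* fell at 2 h (-0.61).

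Of genes known as Hedgehog targets in other tissues, 18 of 20 tested were called in NT, 11 higher and 7 lower, beside 23.6% and 26.3% of all genes. Their median log2 change was 0.77, beside -0.21 over all genes. Many of these genes answer to other signals too. *Snai1*, a repressor of epithelial genes, rose from 16.3 ± 0.549 to 158 ± 9.23 CPM at 2 h, and *Grem1*, a BMP antagonist, from 26.0 ± 0.902 to 213 ± 7.80 CPM at 8 h. *Foxc2* rose from 3.31 ± 0.600 to 16.7 ± 0.636 CPM at 2 h. Between the siRNA groups *Foxc2* was lower at 1 h (-1.13, joint adjusted p = 0.00124), *Foxd1* higher at 24 h (0.60, joint adjusted p = 5.45e-09) and *Nkx3-2* higher at 8 h (0.61, joint adjusted p = 0.00687). The remaining calls between the siRNA groups were *Dhh* (-0.88 at 4 h), *Scube3* (-0.59 at 1 h) and *Adcy5* (-0.75 at 0 h). *Dhh* had 3 to 30 reads in a library, so its call is no support.

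**Figure D5:**
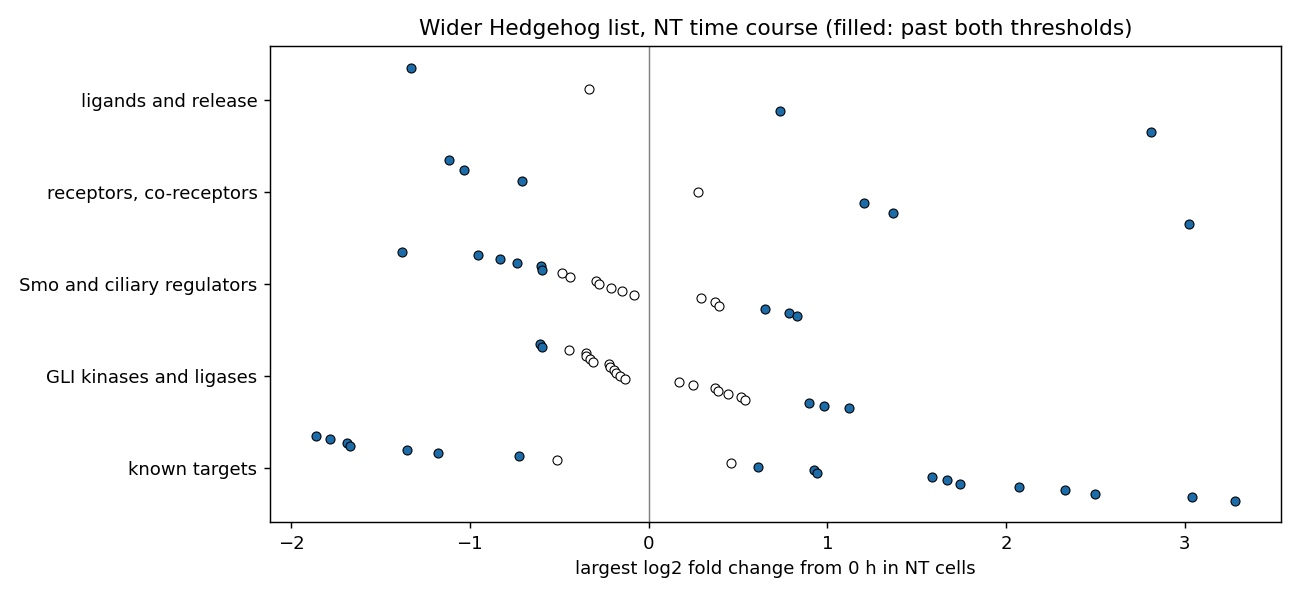
Largest log2 fold change from 0 h over the NT time course for each of the 73 tested genes of the wider list, in a band for each of 5 roles, with genes ordered by change within a band. Filled points passed both thresholds and open points did not, and *Snai1* (3.28) and *Grem1* (3.04) lay farthest right among the known targets.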

How the data were processed

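RNA-seq libraries of NT and IFT88siRNA cells over the IL-1β time course (3 replicates a condition) were compared. Per the submitters' processing notes, HISAT2 2.1.0 and featureCounts of Subread 1.6.3 on GRCm38 and Salmon 0.9.1 were used. The authors deposited gene counts, which are raw and not normalized, and TPM values, scaled for transcript length and to a common library total. The study's methods give default counting settings, which ignore strand and leave reads that overlap 2 genes uncounted. Counts were tested with edgeR 4.0.16 (R 4.3.3, limma 3.58.1; TMM scaling, filterByExpr, quasi-likelihood F test) across all genes, with Benjamini-Hochberg adjustment. NT and IFT88siRNA time courses were fitted apart, siRNA groups were compared within each time point, and all 36 libraries entered the mean and response tests. SE is |log2 change| divided by the root of F, and SD is over replicates. Replicate pairs differed by more than counting noise.

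The 9 members and all gene lists were chosen with earlier results of these data known. Wider-list genes were named by the largest change within each role, and 1 gene of that rule is not reported here. Alternatives were DESeq2 1.42.0, its size factors, upper-quartile scaling, no filter on low counts, no fold threshold, a replicate block, 1 model of all libraries, log2 TPM with a pseudocount of 1 or 0.1 by limma, and leaving out each library. Promoter windows were searched in RefSeq sequences, and gene positions and overlaps are from GENCODE on GRCm38. The study counted reads on Ensembl annotations, in which the overlaps were not checked.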

Additional observations from a re-analysis of the deposited data

Results flagged for a closer look

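Both results here differed between the siRNA groups by a test of the difference itself, the interaction of siRNA and time in edgeR. The change of *Ptch1* from 0 h to 24 h was -0.60 on the log2 scale in IFT88siRNA cells minus that in NT cells (2.46 in NT, 1.87 in IFT88siRNA). The change of *Gas1* from 0 h to 1 h was -0.59 on the same scale (0.78 in NT, 0.20 in IFT88siRNA).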

How the results depend on the processing

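Of 9 members, the counts called were 7 over the NT time course, 5 over the IFT88siRNA time course, 2 in the siRNA difference over the time course, 2 in the difference in response and 0 in the mean siRNA difference. Both time courses and the siRNA difference over the time course include *Hhip*, whose joint call is no support. At single time points 3 siRNA differences were called in all. Without the fold threshold these counts were 9 for IFT88siRNA, 6 for the siRNA difference over the time course, 4 for the mean and 12 at single time points. On log2 TPM, whether with a pseudocount of 1, of 0.1 or without a filter, they were 4 for NT, 3 for IFT88siRNA, 0 at single time points and 0 for the difference in response. The siRNA difference over the time course gave 0, 1 and 0 in these 3 settings. The difference in response gave 1 with DESeq2, with its size factors, with upper-quartile scaling and without the filter. Leaving out a library gave 5 to 7 for NT, 4 to 5 for IFT88siRNA, 2 to 3 at single time points and 0 to 2 for the difference in response. The cause of these shifts was not tested.

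Directions turned in 4 results. *Smo* at 2 h in NT was -0.0301, -0.0303 and -0.0301 on the 3 log2 TPM scales. The mean siRNA difference of *Ptch1*, 0.0014 by edgeR, was -0.00345 with DESeq2, -0.00344 with its size factors, -0.0085 with upper-quartile scaling and -0.0317, -0.0309 and -0.0317 on the 3 log2 TPM scales, and it ran from -0.00638 to 0.0129 without a library. That of *Gpr161* was -0.0010 with upper-quartile scaling, and that of *Gli1* ran from -0.0686 to 0.0301 without a library. Replicate numbers did not pair the libraries. Deviations of same-numbered libraries correlated between -0.133 and 0.223, with 2 of 18 pairs over 0.1 and 5 of 18 closest to their own number. With the replicate block the siRNA differences of *Hhip* and *Sufu* at 0 h had adjusted p of 0.0646 and 0.0623, and 2 members were called at single time points, while the other counts were as given (7, 5, 2, 2 and 0). *Gli1* and *Hhip* were limited by depth, with at most 32 and 89 reads.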
